A study of Mus musculus with 6 samples.

Results

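The transcripts described here are those of the vascular endothelium, measured in preparations that the labels call renal tubular epithelial cells. A set of 32 endothelial genes was looked up by gene symbol among 22206 transcript clusters (sets of probes for a gene or part of one). Of these, 31 were found, each with 1 cluster, all of them on autosomes by their cluster identifiers, and Egfl7 was not analysed here. They fall into 19 pan-endothelial genes, 9 genes linked to capillaries or to a type of vessel, and 3 genes of endothelial activation. Mouse kidneys had gone through 30 min of ischemia (a stopped blood supply) and 24 h of reperfusion, and cells were released from them with collagenase. Each arm, vehicle or PT2385, has 3 arrays. PT2385 is an inhibitor of HIF-2α, a hypoxia-inducible factor, and stops it from joining its partner ARNT. Mice received 10 mg/kg per injection, first 16 h ahead of surgery and then 1, 8 and 20 h afterwards. For the injections the protocol spells the compound PT2384, and the samples named IRPT were taken as the PT2385 arm. Strain, age and sex are not stated in the labels, both groups share the injury, and samples without ischemia were not analysed here.

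Endothelial cells line every vessel of the kidney, from fenestrated capillaries of the glomerulus and around the tubules to arterioles and veins. They are held together by junction proteins such as VE-cadherin and are kept alive and quiet by growth factors from neighbouring cells, chiefly VEGF acting on its receptor KDR and angiopoietin-1 acting on TEK. Injured endothelium loses barrier function, releases angiopoietin-2 and P-selectin from stored granules and makes E-selectin, which lets leukocytes attach. HIF-2α is abundant in endothelial cells, and several vascular genes are among those known to respond to hypoxia.

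Members of the ETS and SOX families of transcription factors, among them ERG and SOX18, drive many endothelial genes. RefSeq promoter windows (build GRCm38.p6) were at hand for 16 of the 32 genes, as 21 windows, and the 250 bases before the gene's start were searched. The ETS-type word AGGAAG, on either strand, occurred in 13 of the 21 windows (61.9%), against 29.5% of all 32851 windows of this length. Egfl7, Erg and Ly6c1 have more than 1 window each, and those of Ly6c1 overlap. By gene, 12 of the 16 held this word in 1 or more windows. The word ACGTG, a form of the core of hypoxia response elements, was found in 0 of the 21 and in 16.6% of all windows. The other form, GCGTG, was not counted, so absence of the core is not read from this. Among the windows printed below, GCGTG or its reverse complement CACGC occurs in Kdr, Emcn and Flt1, but not in Tie1 or Robo4. AGGAAG and ACGTG do not overlap each other in these windows, as ACGTG is missing from them. All these words are matches of letters, not measured binding sites. The windows of 5 genes whose transcripts are followed below are given 5′ to 3′ in the gene's direction, with AGGAAG or its reverse complement CTTCCT in capitals, so that genes with and without it can be compared. Flt1 lies at chr5:147726012-147726261, minus strand; Tie1 at chr4:118489850-118490099, minus strand; Robo4 at chr9:37401722-37401971, plus strand; Emcn at chr3:137340828-137341077, plus strand; and Kdr, without the word, at chr5:75978456-75978705, minus strand.
Flt1: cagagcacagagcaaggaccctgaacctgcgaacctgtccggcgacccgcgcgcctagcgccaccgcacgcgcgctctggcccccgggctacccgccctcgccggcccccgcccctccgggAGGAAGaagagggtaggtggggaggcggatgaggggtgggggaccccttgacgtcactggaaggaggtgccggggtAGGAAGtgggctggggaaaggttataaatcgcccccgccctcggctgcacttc
Tie1: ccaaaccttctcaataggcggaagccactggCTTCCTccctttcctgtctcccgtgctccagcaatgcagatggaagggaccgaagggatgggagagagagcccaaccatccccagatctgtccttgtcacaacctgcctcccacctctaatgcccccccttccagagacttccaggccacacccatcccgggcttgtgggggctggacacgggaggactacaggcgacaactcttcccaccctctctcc
Robo4: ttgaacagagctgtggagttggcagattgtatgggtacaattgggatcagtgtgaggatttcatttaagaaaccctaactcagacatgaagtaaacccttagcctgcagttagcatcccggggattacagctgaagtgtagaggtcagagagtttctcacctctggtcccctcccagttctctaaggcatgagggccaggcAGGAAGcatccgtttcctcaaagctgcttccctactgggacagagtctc
Emcn: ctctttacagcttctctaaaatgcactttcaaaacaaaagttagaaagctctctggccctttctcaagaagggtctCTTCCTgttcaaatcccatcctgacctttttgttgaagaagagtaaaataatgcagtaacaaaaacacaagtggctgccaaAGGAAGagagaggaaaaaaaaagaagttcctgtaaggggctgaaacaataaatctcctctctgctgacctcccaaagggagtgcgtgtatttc
Kdr: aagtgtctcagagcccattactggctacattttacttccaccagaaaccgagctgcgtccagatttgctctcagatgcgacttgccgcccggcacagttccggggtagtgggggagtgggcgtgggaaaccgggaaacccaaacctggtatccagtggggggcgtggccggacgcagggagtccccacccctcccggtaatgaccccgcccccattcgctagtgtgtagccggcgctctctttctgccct
In these windows the word begins 129 and 53 bases before the start of Flt1, 219 before Tie1, 49 before Robo4, and 174 and 93 before Emcn.

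The deposited values are log2 signals, so a difference of 1 is 2-fold. Array medians over all clusters lay between 6.196 and 6.199 in the vehicle group and between 6.235 and 6.248 in the PT2385 group. Against the labelled tissue, 9 of 9 proximal tubule markers lay above the 90th percentile of the negative control rows, with a mean signal of 10.10 to 11.70 per marker. The Y-linked genes Eif2s3y, Uty and Kdm5d lay at 6.34 to 9.28 in the vehicle arrays and at 2.85 to 3.37 in the PT2385 arrays. Ddx3y was not analysed here. The labels state no sex, and for every difference below the treatment and this Y-linked difference cannot be told apart. Loop and distal tubule markers had positive differences, PT2385 minus vehicle, in 8 of 8 cases (median 1.13), with 8 at an unadjusted p under 0.05 and 7 whose arms did not overlap. Of these, Cldn19 alone passed the threshold set out below (1.24, adjusted p = 0.0259 by limma), and it was lost without vehicle replicate 1 or 2 or PT2385 replicate 2 (adjusted p 0.0985, 0.114 and 0.149). Collecting duct markers had positive differences in 9 of 9 cases (median 0.51), with 0 past the threshold by limma. Of the 9, 7 had an unadjusted p under 0.05, and Aqp2 differed by 1.10 and Scnn1b by 0.55. The shares over all clusters were 14.5% at this level and 20.7% without overlap of the arms. The labels do not state whether samples are separate animals; p-values then reflect only how far these samples scatter, which may be technical.

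Most of the endothelial genes gave signals above the typical control row of the array in these tubular isolates. The 5222 rows marked as negative controls on the array had a median of 4.37, a 90th percentile of 6.47 and a 95th percentile of 7.16 over the 6 arrays, and some were bright (up to 13.24). Of the 31 genes, 30 had a mean above that median and 18 above the 90th percentile, 13 of 19 pan-endothelial genes, 5 of 9 vessel-type genes and 0 of 3 activation genes. Among all clusters 75.5% lay above that median and 46.4% above the 90th percentile. The sialomucin gene Emcn (mean over 6 arrays 9.31) lay above 98.9% of the negative rows, and Plvap (9.18), which encodes the diaphragm protein of fenestrae, above 98.9%. Pecam1 (8.44), the CD31 adhesion molecule, lay above 98.2%, and the TGF-beta family co-receptor gene Eng (9.78) above 99.2%. Ly6c1 (10.22) lay above 99.4%, but it has a close copy, Ly6c2, and both genes are also expressed by leukocytes. At the other end, the E-selectin gene Sele (4.02) lay above 40.1% of the negative rows, Lyve1 (4.79), a marker of lymphatic vessels and some macrophages, above 60.4%, and the P-selectin gene Selp (4.93) above 63.8%. The 13 genes not above the 90th percentile were Robo4, Sox18, Cldn5, Icam2, Nos3, Ramp2, Aplnr, Sox17, Lyve1, Vwf, Angpt2, Sele and Selp. Signals of the 23 background rows ran from 2.45 to 7.37. No single level here separates expressed from silent genes, and a difference in a dim gene can be understated.

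**Figure D1:**
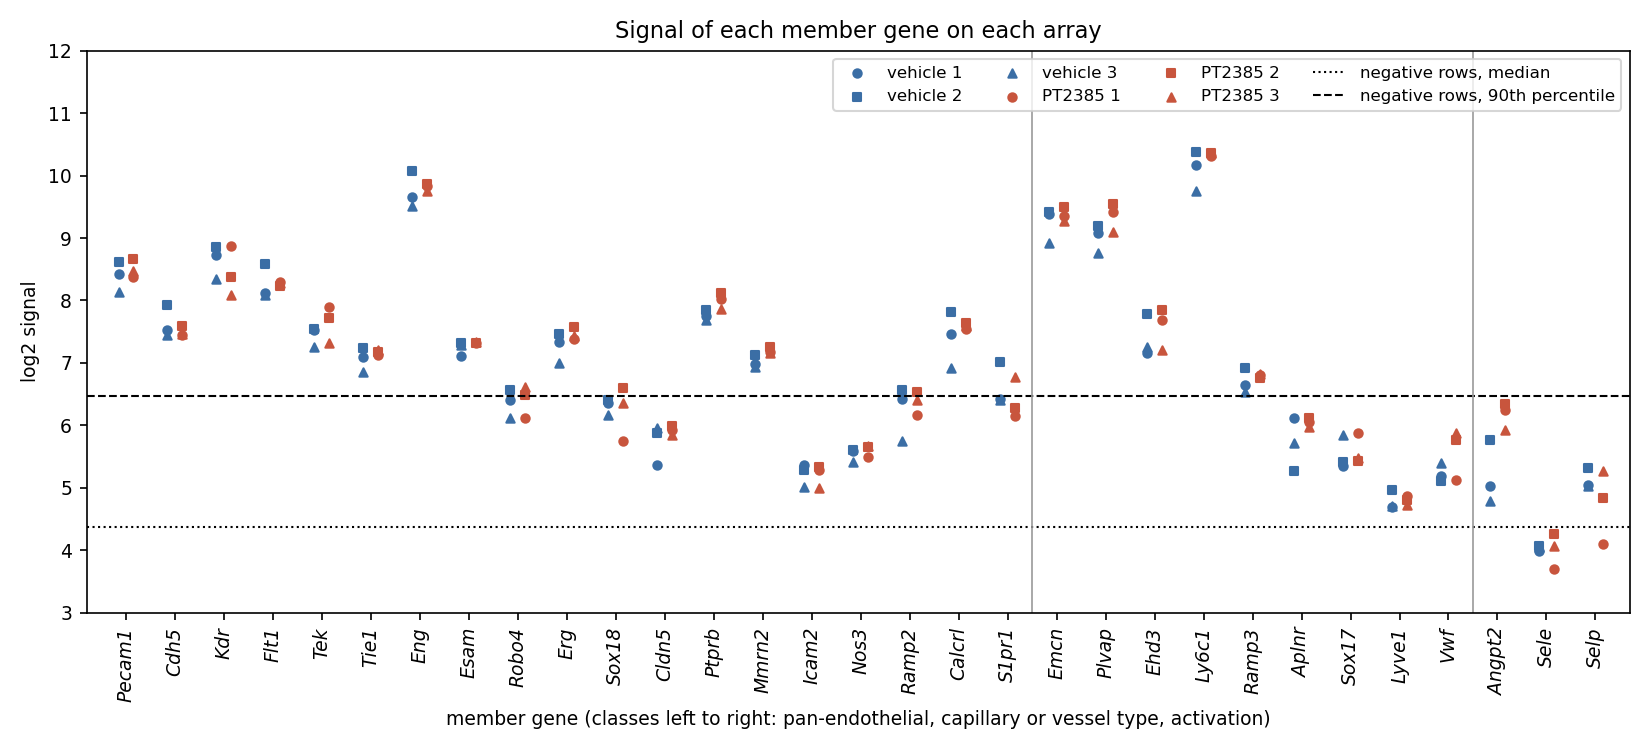
Log2 signal (y axis) of each of the 31 endothelial genes (x axis) on each of the 6 arrays, with vehicle in blue and PT2385 in red and 1 marker shape per replicate number. The dotted and dashed lines are the median (4.37) and the 90th percentile (6.47) of the negative control rows; 18 genes have a mean above the dashed line, and vehicle and PT2385 points overlap for 27 of the 31 genes.

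The comparison of the arms asked whether endothelial transcripts differ between injured isolates with and without PT2385. No endothelial gene passed the threshold (limma with Benjamini-Hochberg adjustment over all 22206 clusters, adjusted p under 0.05), in either direction. Among all clusters 0.829% passed, 74 higher (0.333%) and 110 lower (0.495%), or 57 higher and 135 lower after each array was centred on its median. At an unadjusted p under 0.05 there were 2 of 31, Ptprb and Angpt2, both higher in value, where 14.5% of all clusters reached this level. The arms did not overlap for 4 of 31 genes, Esam, Ptprb, Mmrn2 and Angpt2, all higher in value and 0 lower. Of all clusters 20.7% did not overlap, 11.6% higher and 9.13% lower. The endothelial genes' shares are thus below or near the background. The difference was positive for 24 of 31 genes against 53.5% of all clusters, with a median of 0.11 against 0.02. The median was 0.0032 without vehicle replicate 3, 0.07 without vehicle replicate 1, 0.20 without vehicle replicate 2 and 0.06 with median-centred arrays. For 30 of 31 genes the 95% interval of the difference lay within -1 and 1, that is within 2-fold either way, each interval taken on its own; the exception was Angpt2. In a bulk isolate fewer endothelial cells and less RNA per cell cannot be told apart.

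**Figure D2:**
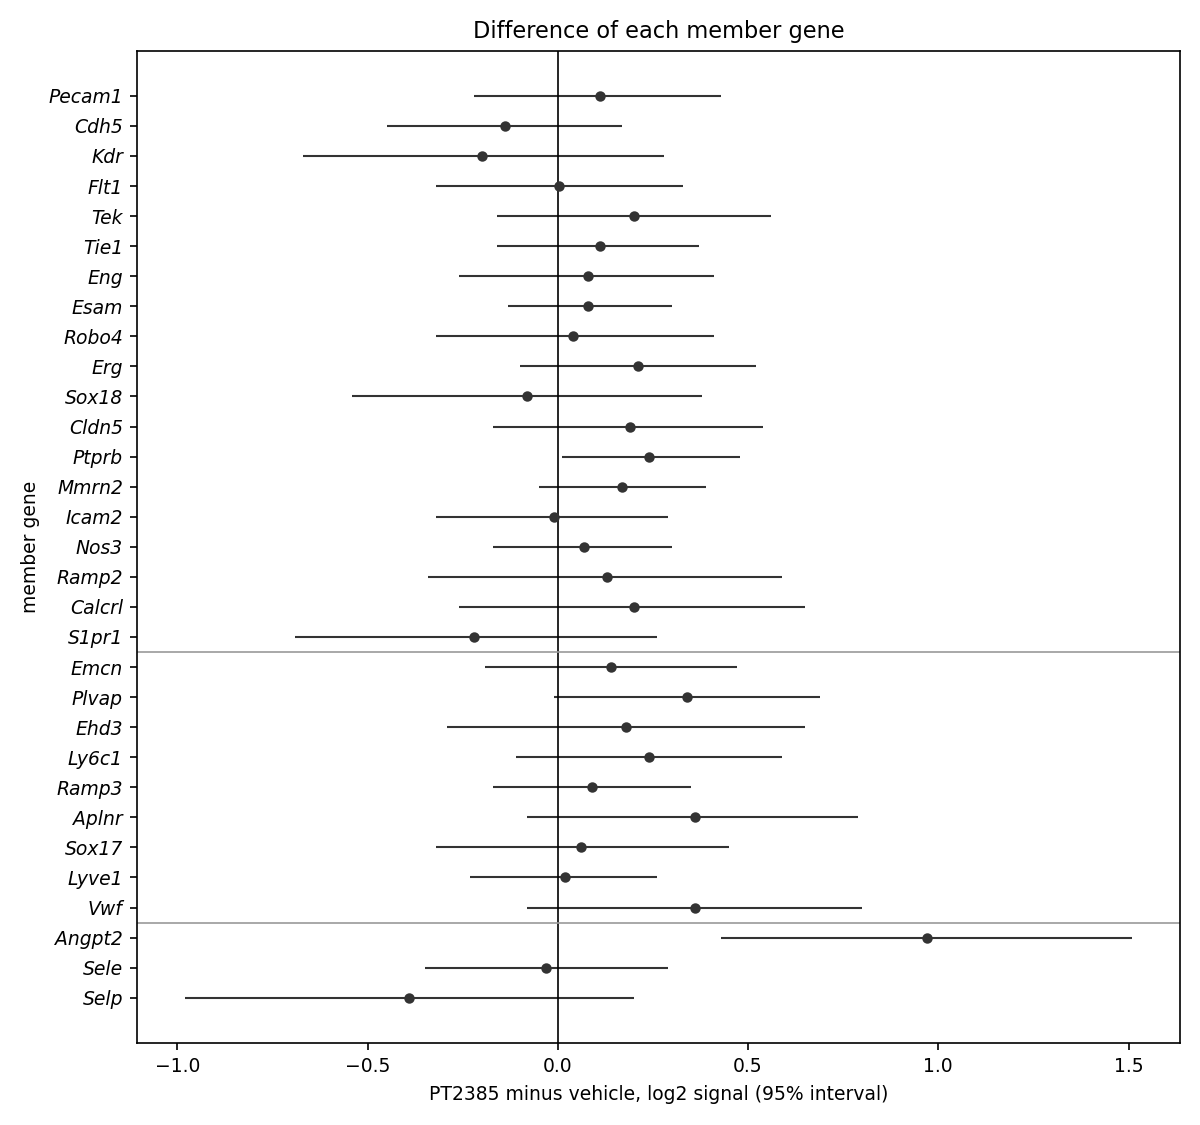
Difference in log2 signal, PT2385 minus vehicle (x axis), of each endothelial gene (y axis), with the 95% interval from limma; grey lines part the pan-endothelial, vessel-type and activation genes. All intervals but those of Ptprb (0.01 to 0.48) and Angpt2 (0.43 to 1.51) include 0.

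Genes of endothelial junctions and adhesion had overlapping values in the arms, apart from Esam. Pecam1 was at 8.42, 8.62 and 8.13 in vehicle replicates 1 to 3 and at 8.37, 8.66 and 8.47 in PT2385 replicates 1 to 3, which is a difference of 0.11 (SE 0.14, adjusted p = 0.759). The lowest value was that of vehicle replicate 3, and the arms overlapped. Cdh5, which encodes VE-cadherin of the adherens junction, was at 7.52, 7.93 and 7.44 with vehicle and 7.44, 7.59 and 7.46 with PT2385, a difference of -0.14 (SE 0.14, adjusted p = 0.675). Here vehicle replicate 2 stood above the other 5 arrays, and without it the difference was 0.0098. Esam, an immunoglobulin-type protein of tight junctions, had 7.24 ± 0.11 against 7.32 ± 0.01 (SD, n = 3 each), with a difference of 0.08. The gap between the highest vehicle and the lowest PT2385 value of Esam, both 7.31, was under a hundredth. The tight junction gene Cldn5 differed by 0.19, or by 0.0053 without vehicle replicate 1, and the leukocyte integrin ligand gene Icam2 by -0.01 (SE 0.16 and 0.13 over all arrays).

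The VEGF receptor genes did not separate the arms. Kdr, the main signalling receptor of VEGF-A, was at 8.72, 8.85 and 8.34 with vehicle and 8.87, 8.37 and 8.09 with PT2385, a difference of -0.20 (95% interval -0.67 to 0.28, adjusted p = 0.698). The highest and the lowest of the 6 values both came from PT2385 arrays. Flt1, whose product binds VEGF-A with little signalling and acts in part as a decoy, was at 8.12, 8.59 and 8.08 against 8.30, 8.23 and 8.28, a difference of 0.0039 (95% interval -0.32 to 0.33, adjusted p = 0.993). Its PT2385 arrays were tightly grouped inside the range of the vehicle arrays.

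The angiopoietin receptor genes were likewise similar in level, while the ligand gene Angpt2 had the widest gap of the 31. Tek, the receptor of angiopoietins, was at 7.52, 7.54 and 7.26 with vehicle and 7.90, 7.72 and 7.31 with PT2385, a difference of 0.20 (SE 0.16, adjusted p = 0.598). Tie1, its partner without a high-affinity ligand of its own, was at 7.10, 7.24 and 6.86 against 7.13, 7.18 and 7.20, a difference of 0.11 (SE 0.12, adjusted p = 0.703). Ptprb encodes VE-PTP, a phosphatase that holds TEK signalling down, and was at 7.75, 7.85 and 7.69 against 8.03, 8.12 and 7.87. All 3 PT2385 values of Ptprb lay above the vehicle values, by little, and the difference of 0.24 (SE 0.10) had an unadjusted p of 0.0458 and an adjusted p = 0.337.

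Angpt2 encodes angiopoietin-2, which activated endothelium releases and which mostly opposes angiopoietin-1 at TEK. Its values were 5.03, 5.77 and 4.79 with vehicle and 6.25, 6.34 and 5.92 with PT2385. The arms did not overlap, although vehicle replicate 2 came close to PT2385 replicate 3. The means were 5.20 ± 0.51 and 6.17 ± 0.22 (SD, n = 3 each), and the difference of 0.97 (SE 0.24, 95% interval 0.43 to 1.51) corresponds to 1.96-fold. It did not pass over all clusters (adjusted p = 0.129). Without vehicle replicate 2 it was 1.26 with adjusted p = 0.0297, and without PT2385 replicate 2 it was 0.89 with adjusted p = 0.413. Both means lie under the 90th percentile of the negative rows.

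The other 2 activation genes had low signals and no gap between arms. Sele was at 3.98, 4.06 and 4.05 with vehicle and 3.70, 4.25 and 4.06 with PT2385, all below the median of the negative rows, so no level or direction is read from it. Selp was at 5.05, 5.31 and 5.03 against 4.10, 4.84 and 5.27, a difference of -0.39 (SE 0.26, 95% interval -0.98 to 0.20, adjusted p = 0.523). PT2385 replicate 1 gave the lowest value of Selp, and PT2385 replicate 3 lay inside the vehicle range. Platelets also carry P-selectin. Of the 7 platelet genes measured, 6 had positive differences (median 0.11) and 0 passed the limma threshold. An unadjusted p under 0.05 was reached by 3, Itga2b, Ppbp and Gp5, and by 14.5% of all clusters. Itga2b differed by 0.30. Ppbp and Gp5, both counted above, lay below the median of the negative rows on all 6 arrays, so no direction is read from them. The part of platelets in the values of Selp was not tested.

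Receptors and enzymes that set vessel tone and barrier moved within their spread. The adrenomedullin receptor is made of the product of Calcrl with that of Ramp2 or Ramp3. Calcrl differed by 0.20 (SE 0.20), Ramp2 by 0.13 (SE 0.20) and Ramp3 by 0.09 (SE 0.11). For Calcrl and Ramp2 most of the spread came from vehicle replicate 3, at 6.92 and 5.75, and without it their differences were -0.04 and -0.12. S1pr1, the sphingosine-1-phosphate receptor of barrier upkeep, differed by -0.22 (SE 0.21). Nos3, endothelial nitric oxide synthase, differed by 0.07 (SE 0.10). The co-receptor gene Eng differed by 0.08 (SE 0.15), the guidance receptor gene Robo4 by 0.04 (SE 0.16) and the matrix glycoprotein gene Mmrn2 by 0.17 (SE 0.10), with values of 6.98, 7.13 and 6.94 against 7.17, 7.25 and 7.15 for the last. The values of Mmrn2 in the arms did not overlap, by a margin of a few hundredths, and its adjusted p = 0.454.

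Among the transcription factors, Erg, an ETS factor that maintains endothelial identity, was at 7.33, 7.46 and 6.99 with vehicle and 7.39, 7.58 and 7.43 with PT2385 (difference 0.21, SE 0.14, adjusted p = 0.518). Vehicle replicate 3 was again the lowest array. The SOX factor genes Sox18 and Sox17, the second linked to arteries, differed by -0.08 (SE 0.20) and 0.06 (SE 0.17), and both were dim.

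Genes tied to capillaries or to a vessel type had positive differences in 9 of 9 cases, with a median of 0.18, and 0 of them passed the limma threshold (adjusted p 0.358 to 0.963) or had an unadjusted p under 0.05. Emcn, a marker of capillaries and veins, was at 9.38, 9.41 and 8.92 with vehicle and 9.36, 9.50 and 9.28 with PT2385, a difference of 0.14 (SE 0.14, adjusted p = 0.683). Plvap was at 9.08, 9.20 and 8.76 against 9.41, 9.55 and 9.10, a difference of 0.34 (SE 0.15, 95% interval -0.01 to 0.69, adjusted p = 0.358). PT2385 replicate 3 lay between the vehicle arrays for Plvap, and the other 2 PT2385 arrays lay above all of them. Ehd3, an endocytic trafficking gene enriched in glomerular endothelium, was at 7.15, 7.79 and 7.26 against 7.68, 7.84 and 7.21, a difference of 0.18 (SE 0.21, adjusted p = 0.719). For Ehd3 the 2 highest and the 2 lowest arrays came from both arms. Ly6c1 differed by 0.24 (SE 0.15) and the apelin receptor gene Aplnr by 0.36 (SE 0.19). Aplnr was at 6.12, 5.27 and 5.71 against 6.06, 6.12 and 5.98, with vehicle replicate 2 apart at the low end. Vwf, the clotting factor of larger vessels and of the granules that also hold P-selectin, was at 5.18, 5.11 and 5.39 against 5.12, 5.77 and 5.87, a difference of 0.36 (SE 0.19, adjusted p = 0.427). Lyve1 differed by 0.02 (SE 0.11).

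Most pan-endothelial genes were higher in vehicle replicate 2 than in vehicle replicate 3. Each gene's deviation from its own mean over the 6 arrays, averaged over the 19 pan-endothelial genes, was -0.04, 0.17 and -0.22 in vehicle replicates 1 to 3 and -0.02, 0.10 and 0.01 in PT2385 replicates 1 to 3. The PT2385 arrays thus lay between the highest and the lowest vehicle array. Vehicle replicates 2 and 3 were picked for counting after the averages were seen, so the counts are no test. Vehicle replicate 2 exceeded vehicle replicate 3 for 18 of these 19 genes, against 47.5% of all clusters, and replicate 3 was the lowest of the 6 arrays for 12 of them. In the second endothelial list described below, these counts were 24 and 7 of 34. Replicate 2 also exceeded replicate 3 for 6 of 7 platelet and 5 of 7 fibroblast genes, but for 2 of 6 lymphatic genes. Among the 9 vessel-type genes vehicle replicate 2 exceeded replicate 3 for 6, with Aplnr, Sox17 and Vwf the other way. Without vehicle replicate 3 the median difference of the pan-endothelial genes was -0.04, and without vehicle replicate 2 it was 0.19, where all arrays gave 0.08. For the vessel-type genes the averaged deviations were -0.09, -0.02 and -0.19 against 0.10, 0.17 and 0.03, and for the activation genes -0.19, 0.17 and -0.25 against -0.19, 0.26 and 0.21. The arms overlapped in each of these averages except that of the vessel-type genes, whose median deviations (-0.10, 0.10 and -0.21 against 0.09, 0.19 and -0.03) did overlap. No test was made on these averages.

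**Figure D3:**
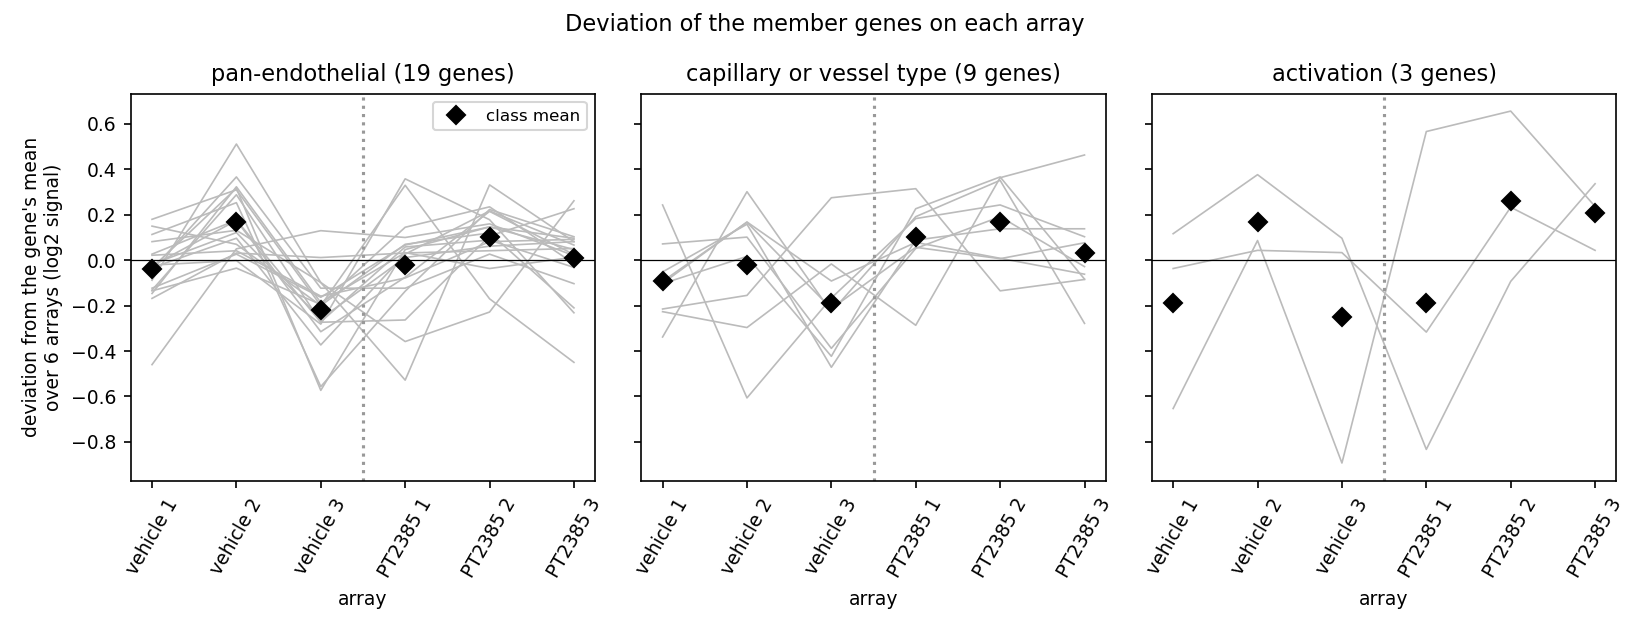
Deviation of each gene from its own mean over the 6 arrays (y axis, log2 signal) on each array (x axis), in 1 panel per class. Grey lines join the values of 1 gene, in an array order that carries no meaning, and diamonds are class means; the pan-endothelial mean is highest in vehicle replicate 2 (0.17) and lowest in vehicle replicate 3 (-0.22).

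Markers of other cells also varied between these arrays. Among 11 mural cell markers (pericytes and smooth muscle) the averaged deviation was -0.01, 0.14 and -0.19 with vehicle and 0.04, 0.06 and -0.04 with PT2385. Vehicle replicate 2 exceeded replicate 3 for 7 of the 11. The contractile genes Acta2 and Tagln, picked out after their values were seen, were at 10.61 and 9.61 in vehicle replicate 2 and at 9.03 and 8.04 in vehicle replicate 3, while Cspg4, Kcnj8, Abcc9 and Higd1b ran the other way. Proximal tubule markers ran the other way among vehicle arrays, with averaged deviations of 0.12, -0.10 and 0.18, and vehicle replicate 2 exceeded replicate 3 for 0 of 9. Between the arms 0 mural markers passed the limma threshold or had an unadjusted p under 0.05 (8 of 11 positive, median 0.09, with Kcnj8 at 0.23 and Abcc9 at 0.44). The median was -0.17 over those above the 90th percentile of the negative rows, which leaves out both of these genes. Their mean level ran from 6.54 to 6.87 with vehicle and from 6.69 to 6.79 with PT2385. Of the 9 proximal tubule markers 1 passed, the organic anion transporter gene Slc22a6, lower at -0.97 (SE 0.10, adjusted p = 0.00572), and their mean level ran from 10.85 to 11.13 and from 10.47 to 11.31. What part the makeup of the isolates has in the endothelial values was not tested.

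A second list of 36 endothelial genes, of which 34 were measured, likewise held 0 past the limma threshold (22 positive and 12 negative, median 0.07). An unadjusted p under 0.05 was reached by 4 of them, 3 higher and 1 lower, and by 14.5% of all clusters. The lower one was Thbd (difference -0.57, adjusted p = 0.344), named after its values were seen. The arms did not overlap for 4 higher and 2 lower genes of the list, and for 20.7% of all clusters. The smallest p belonged to Plat, tissue plasminogen activator, which starts fibrinolysis and is also made by tubular cells. Plat was at 8.69, 9.35 and 8.67 with vehicle and 9.39, 9.82 and 10.18 with PT2385, a difference of 0.89 (SE 0.23, adjusted p = 0.153). The arms did not overlap, with vehicle replicate 2 just under PT2385 replicate 1. Stab2, a scavenger receptor gene of sinusoidal endothelium, was at 3.10 to 3.14 with vehicle and 3.31 to 3.68 with PT2385, all below the median of the negative rows, so no direction is read from it (adjusted p = 0.249).

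Genes of a list of vascular ligands mostly kept to their spread. The list also holds Sphk1, Sphk2 and Spns2, which are not ligand genes. For Pdgfb, Cxcl12 and Edn1, also on it, the receptors are not among the endothelial genes above. Of 21 measured, 0 passed the limma threshold (11 positive, 10 negative, median 0.05). An unadjusted p under 0.05 was reached by 2, and by 14.5% of all clusters. Vegfa, the ligand of Kdr and Flt1, was at 9.11, 8.66 and 8.28 with vehicle and 8.90, 8.97 and 9.04 with PT2385, a difference of 0.29 (SE 0.19, adjusted p = 0.515). Angpt1, the activating ligand of Tek, was at 7.72, 7.45 and 7.23 against 7.91, 7.18 and 7.20, a difference of -0.04 (SE 0.21, adjusted p = 0.954). Its values in the arms overlapped. Adm encodes adrenomedullin, the ligand of the Calcrl receptor, and was at 7.45, 8.59 and 8.08 against 6.97, 6.78 and 7.41, a difference of -0.99 (SE 0.27, adjusted p = 0.174). All PT2385 values of Adm lay under the vehicle values, with vehicle replicate 1 and PT2385 replicate 3 nearly level. Apln, the ligand of Aplnr, differed by -0.39 (SE 0.16, adjusted p = 0.324).

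**Figure D4:**
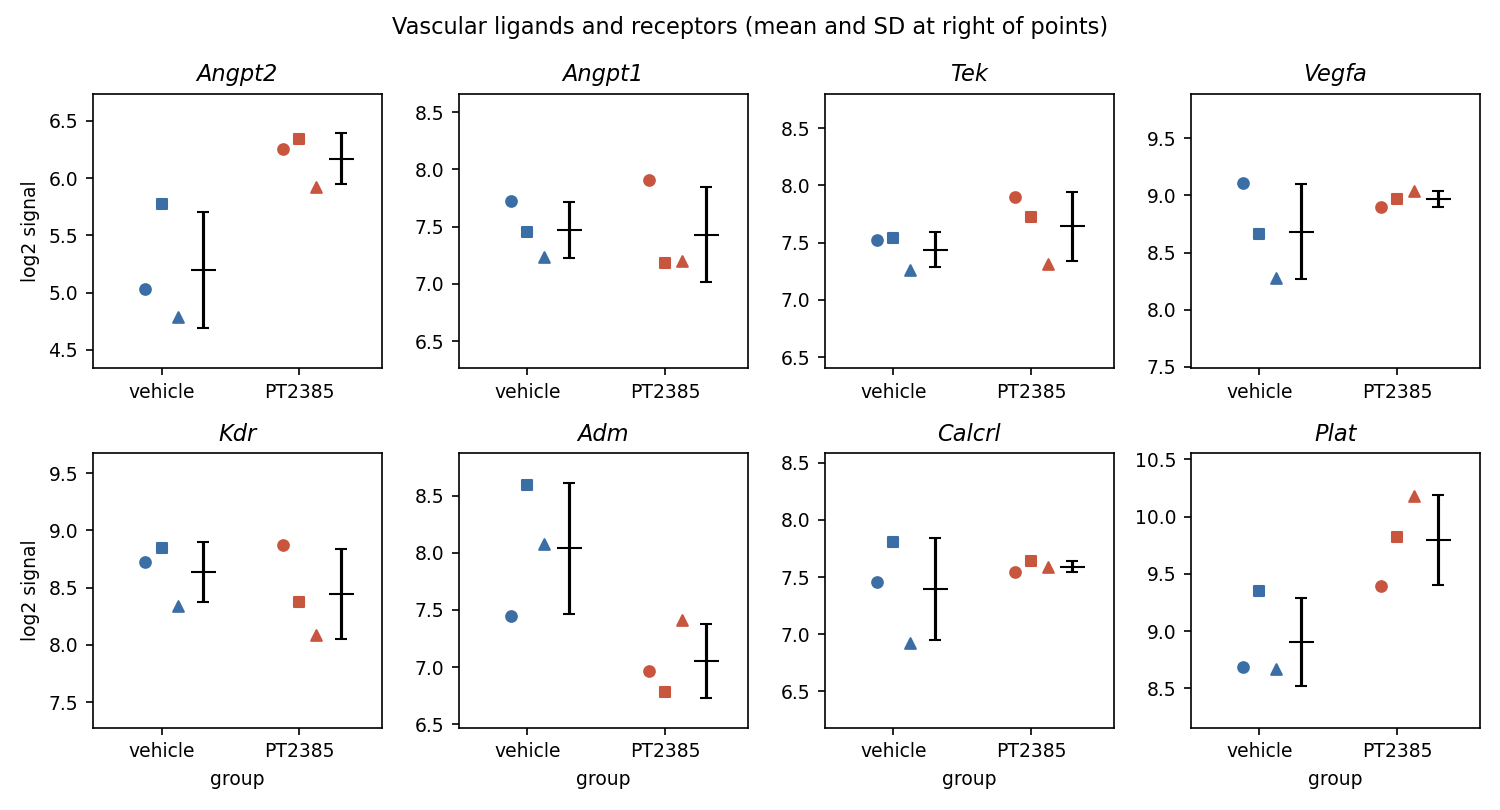
Log2 signal (y axis) of 8 vascular genes in the vehicle (blue) and PT2385 (red) arrays (x axis), with circles, squares and triangles for replicates 1, 2 and 3 and the mean and SD at the right; each panel spans the same height. The arms do not overlap for Angpt2, Adm and Plat and overlap for Angpt1, Tek, Vegfa, Kdr and Calcrl.

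Genes of a list of leukocyte attachment were lower in value in 9 of 10 cases (median -0.16), where 53.5% of all clusters had positive differences. Not all of the list encode adhesion molecules. It also holds the chemokine genes Ccl2, Cxcl1 and Cxcl2 and the tissue factor gene F3, all among the 9. Among the 9 were Ackr1 and Madcam1, below the median of the negative rows on all 6 arrays, so no direction is read from them. With only clusters above that level kept, the median was -0.20. The averaged deviation of the 10 genes was 0.11, 0.09 and 0.08 with vehicle and -0.29, -0.13 and 0.15 with PT2385. PT2385 replicate 3 was thus the highest array in this average. Of the 10 genes, 0 passed the limma threshold or had an unadjusted p under 0.05. Icam1, an adhesion molecule of activated endothelium and of injured tubules, was at 7.94, 8.11 and 8.23 with vehicle and 7.36, 7.71 and 8.14 with PT2385, a difference of -0.36 (SE 0.19, adjusted p = 0.419). Vcam1 differed by 0.03 (SE 0.16, adjusted p = 0.942) and the tissue factor gene F3 by -0.21 (SE 0.11, adjusted p = 0.417). Beside these, 8 of 10 leukocyte markers were lower in value (median -0.49, or -0.29 without vehicle replicate 1). An unadjusted p under 0.05 was reached by 6 of them, all lower, and 5 did not overlap between arms. Among all clusters 6.54% were lower at this level, and 9.13% were lower without overlap. Adgre1 and Csf1r of the same list differed by -0.05 and -0.09, and their arms overlapped. The neutrophil genes S100a8 and S100a9 and the integrin gene Itgam, named after their values were seen, differed by -1.56, -1.01 and -0.95 and did not pass (adjusted p = 0.0972, 0.213 and 0.0974). The markers' mean level ran from 6.06 to 6.39 with vehicle and from 5.46 to 5.86 with PT2385. The lysozyme gene Lyz2 fell by 1.19 (8.95, 8.32 and 8.45 against 7.30, 7.34 and 7.52, SE 0.16, adjusted p = 0.0202). It no longer passed without vehicle replicate 3 (adjusted p = 0.0635) or PT2385 replicate 2 (adjusted p = 0.131). The lymphocyte genes Cd3e and Cd79a, named after their values were seen, had means (3.97 and 3.78) below the median of the negative rows. The part of leukocyte RNA in the attachment genes was not tested.

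Lymphatic vessel genes held 1 called member, where 0.829% of all clusters passed the limma threshold. Of 6 measured, 6 had positive differences (median 0.34) and 1 passed, Ccl21a, a chemokine of lymphatic endothelium and lymphoid stroma with near-identical gene copies. It was at 7.00, 6.91 and 6.85 with vehicle and 7.38, 7.64 and 7.66 with PT2385, a difference of 0.64 (SE 0.11, adjusted p = 0.0432). The call was lost when any 1 array but PT2385 replicate 1 was left out (adjusted p 0.0928 to 0.222). It was also lost with median-centred arrays (adjusted p = 0.0539). Prox1, the factor that sets lymphatic identity and that distal tubule cells can also express, was at 6.25, 6.15 and 6.43 against 7.39, 7.05 and 6.76 (difference 0.79, SE 0.16, adjusted p = 0.0817). An unadjusted p under 0.05 was reached by 3 of the 6, and the arms did not overlap for 3, all higher. The shares over all clusters were 14.5% and 20.7%. Prox1, Flt4, Pdpn, Reln and Mmrn1 were named after their values were seen. Reln differed by 0.36 with arms that did not overlap (adjusted p = 0.294). Mmrn1 differed by 0.31 but lay below the median of the negative rows on all 6 arrays, so no direction is read from it. The lymphatic receptor gene Flt4 differed by 0.10, Pdpn by 0.13 and, as given above, Lyve1 by 0.02. Prox1 was highest in PT2385 replicate 1, as was the averaged deviation of the loop and distal tubule markers (0.97, 0.45 and 0.14 in the PT2385 arrays), and their part in it was not tested.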

How the data were processed

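Total RNA of 6 samples was hybridised to Affymetrix whole-transcript arrays, 1 per sample. The deposited values are log2 signals, 1 per transcript cluster and array, made by the authors; the submitters' processing notes list Transcriptome Analysis Console. How signals were summarised and normalized is not given in the sources used here. Of 28846 rows the 6640 control rows were set aside and 22206 clusters were tested with no filter on dim signals; 19572 had 1 gene symbol in the platform annotation. The arms were compared with limma 3.58.1 (R 4.3.3; lmFit and eBayes, treatment as the only term, 2-sided, Benjamini-Hochberg adjustment over all clusters, threshold 0.05). Differences are PT2385 minus vehicle, with the SE from the moderated variance. The number of arrays limits the precision. The fit was tested on simulated data.

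The genes, their classes and the other lists were chosen with earlier results of these data known. Lists are described by counts and medians, with no test. Array values are given for members past the threshold, for the 3 smallest p in each class and for the main receptors, vessel markers and activation genes; other lists name called genes or the 2 smallest p, and Vegfa, Angpt1, Apln, Adm, Icam1 and Vcam1. No explanation of a difference was weighed. At most 0.234% of clusters had equal values in any 2 arrays. Whether the labels' replicate numbers pair the samples is not known. Correlations of deviations from the group means were 0.138, 0.0252 and -0.0587 for numbers 1, 2 and 3. The highest value, 0.236, was that of vehicle number 2 with PT2385 number 3, and these values do not settle pairing. Alternatives are given in the closing section.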

Additional observations from a re-analysis of the deposited data

How the results depend on the processing

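Over 17 alternative settings the count of endothelial genes past the threshold stayed at 0 lower. It was 0 higher except for 1, Angpt2, with the replicate block (adjusted p = 0.0350) and without vehicle replicate 2. The range was 0 to 1 over the arrays left out. For the block, whether the replicate number pairs the samples is not known. With the replicate block the Ccl21a call was lost (adjusted p = 0.0793). Array weights gave 191 higher and 265 lower clusters over the whole array, and leaving out 1 array gave 14 to 76 higher and 28 to 117 lower. The activation median became 0.29 when only clusters above the negative-row median were kept, which drops Sele. The pan-endothelial median ran from -0.04 to 0.19 with 1 array left out.

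The sign of 17 of the 31 genes held under every setting they entered, though many sizes moved by over 1.5 times. With 1 array left out they ran from 0.0032 to 0.19 for Tie1, -0.41 to -0.02 for Kdr, -0.40 to -0.02 for S1pr1, 0.07 to 0.37 for Tek, 0.07 to 0.31 for Erg, 0.0053 to 0.30 for Cldn5, 0.02 to 0.12 for Esam, 0.01 to 0.20 for Ramp3, 0.07 to 0.38 for Ly6c1, 0.05 to 0.37 for Ehd3, 0.14 to 0.57 for Aplnr, 0.22 to 0.59 for Vwf, 0.21 to 0.47 for Plvap, 0.19 to 0.31 for Ptprb, 0.13 to 0.23 for Mmrn2, 0.77 to 1.26 for Angpt2 and -0.66 to -0.07 for Selp. The other 14 changed sign under 1 or more, with 0 of these values past the threshold; the cause was not tested. Median-centred arrays gave -0.04 for Flt1, -0.001 for Robo4 and -0.03 for Lyve1. Quantile normalization gave -0.01 for Nos3, -0.009 for Sox17 and -0.06 for Lyve1, and cyclic loess gave -0.0021 for Robo4, -0.02 for Nos3, -0.02 for Sox17 and -0.06 for Lyve1. Array weights gave -0.03 for Flt1, 0.11 for Sox18, 0.02 for Icam2, -0.0056 for Sox17 and 0.10 for Sele. With 1 array left out the ranges were -0.02 to 0.23 for Pecam1, -0.23 to 0.0098 for Cdh5, -0.09 to 0.17 for Flt1, -0.04 to 0.24 for Eng, -0.08 to 0.19 for Robo4, -0.26 to 0.17 for Sox18, -0.12 to 0.09 for Icam2, -0.12 to 0.29 for Ramp2, -0.04 to 0.40 for Calcrl, -0.01 to 0.23 for Emcn, -0.08 to 0.22 for Sox17, -0.03 to 0.10 for Lyve1 and -0.15 to 0.12 for Sele. No listed gene had over 1 cluster, so averaging clusters changed no value.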

Other observations

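Genes of other cells of the glomerulus and the interstitium were also measured, and the source of their signals was not tested. Means above the 90th percentile of the negative rows were found for 3 of 5 podocyte genes and 5 of 7 fibroblast genes. Of the 5 podocyte genes (cells that wrap the glomerular capillaries) 0 passed the limma threshold, and the median difference was -0.02. An unadjusted p under 0.05 was reached by 1 of them, and by 14.5% of all clusters. The slit diaphragm gene Nphs1, named after its values were seen, was at 7.98, 8.03 and 8.14 with vehicle and 8.02, 7.98 and 8.26 with PT2385, above 97.9% of the negative rows. The receptor phosphatase gene Ptpro was at 6.44, 6.42 and 6.64 against 6.06, 6.21 and 6.18, a difference of -0.35 (SE 0.10, adjusted p = 0.193), and Wt1 differed by 0.27 (SE 0.15, adjusted p = 0.440).

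Fibroblast genes had positive differences in 7 of 7 cases, with a median of 0.42, 0 past the limma threshold and 4 at an unadjusted p under 0.05 (14.5% of all clusters). The median was 0.14 over those above the 90th percentile of the negative rows. Dpt, a matrix protein gene, was at 5.62, 5.24 and 5.03 with vehicle and 6.67, 6.54 and 5.69 with PT2385, a difference of 1.00 (SE 0.25, adjusted p = 0.143). The proteoglycan gene Lum was dim (3.65 to 3.91 with vehicle and 3.95 to 4.34 with PT2385). It lay below the median of the negative rows on all 6 arrays, so no direction is read from it, although it is counted above. Dcn and Gsn, named after their values were seen, also reached the unadjusted level. They differed by 0.51 and 0.42, and the arms overlapped for Dcn but not for Gsn. The 2 red cell genes measured, Epb42 and Alas2, differed by -0.57 and -0.20, with adjusted p = 0.0974 and 0.648.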
